A study of Mus musculus with 16 samples.

Results

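Brain endothelial cells (bECs) were examined for the families of guidance cues and receptors first known from growing axons. The genes were the semaphorins of classes 3 to 7, the plexins, both neuropilins, the Eph receptors and their ephrin ligands, Slit1 to Slit3 and Robo1 to Robo4, and the netrins with the Unc5 receptors. They were taken from the count table by symbol, with no measured value used, and came to 68 of its 37003 genes. Of these, 67 code for the named proteins, and Plxna4os1 is an antisense gene whose symbol begins like that of Plxna4. All 68 passed the filter on low counts, which left 31085 genes for testing.

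The RNA came from bECs sorted as living, CD45- and CD31+ cells, and was measured in 16 libraries, 4 in each of 4 groups. YT-iKO mice carried Yap fl/fl and Taz fl/fl alleles and the Pdgfb-iCreER-eGFP transgene, whose Pdgfb promoter drives a tamoxifen-inducible Cre recombinase in endothelium, and CTRL littermates carried the same floxed alleles without the transgene. Adult mice of both genotypes and both sexes received tamoxifen, then sham surgery or a 30-minute middle cerebral artery occlusion (MCAo), and bECs were taken 72 hours later. In MCAo mice the ischemic territory of the artery and the matching area of the other hemisphere were dissected. Whether a library held both sides, and in which shares, is not given in the sources used here. Each library was a pool of several mice. The pool is the replicate, and p-values measure the spread between pools. In bulk RNA, fewer cells of a type and less RNA per cell cannot be told apart.

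The deleted genes Yap1 and Wwtr1, which encodes TAZ, checked the labels. Yap1 lay between 111 and 112 CPM (counts scaled to the library's total) in CTRL sham and between 38.6 and 59.2 CPM in YT-iKO sham, and Wwtr1 between 253 and 276 and between 45.0 and 95.9 CPM. All 10 endothelial markers were present, with a summed level of 9252 to 19636 CPM over the 16 libraries, against 486 to 1480 CPM for 7 pericyte markers, 61.7 to 113 CPM for 6 astrocyte markers and 13.5 to 52.7 CPM for 8 neuronal markers. Total counts ran from 11418262 to 23074547. The libraries differed in an even background of reads, which was measured on 1564 autosomal olfactory, vomeronasal and taste receptor genes. It ran from 0.0313 CPM per kb of exon in YT-iKO MCAo replicate 4 to 0.577 CPM per kb in YT-iKO MCAo replicate 2. The scaling factors (TMM) computed from all genes tested ran from 0.743 to 1.40, and those computed only from abundant genes, whose mean was 10 CPM or more, from 0.938 to 1.04. The pools also differed in Xist, the RNA of the inactive X chromosome, which was above 500 CPM in 7 libraries and at most 23.8 CPM in the other 9. It was high in 2 of the 4 libraries of CTRL sham, YT-iKO sham and YT-iKO MCAo each and in 1 of the 4 of CTRL MCAo. All libraries numbered 3 were high and all numbered 2 low, and those numbered 1 and 4 were mixed. The CPM below use the all-gene factors unless the abundant-gene factors are named, and each comparison was made with both, because they differ in what they call.

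Semaphorins bind plexins, the secreted class 3 members mostly through a neuropilin partner, and plexin signaling alters integrin adhesion and the actin cytoskeleton. Ephrins stay on the membrane and bind Eph receptor kinases on neighboring cells, Slits bind Robo receptors, and netrins bind Unc5 receptors. In vessels these systems steer sprouting cells, and ephrin-B2 and EphB4 are known as marks of arterial and venous endothelium.

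Of the 67 genes, 26 stood clear of the background, with a median over all 16 libraries of at least 10 times its density in the same library, a limit that was set after the levels were seen. These were 8 of 20 semaphorins, 8 of 11 plexins and neuropilins, 3 of 14 Eph receptors, 3 of 8 ephrins, 1 of 7 Slit and Robo genes and 3 of 7 netrin and Unc5 genes. Just inside the limit was Plxna4, with a median of 14.7 times the background, and just outside it Epha1, with 8.01 times. In CTRL sham, summed over its members and per length of exon, the semaphorin family reached 558 CPM per kb, the plexins and neuropilins 195, the Eph receptors 102, Slit and Robo 91.8, the ephrins 54.9 and netrin and Unc5 47.6.

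**Figure D1:**
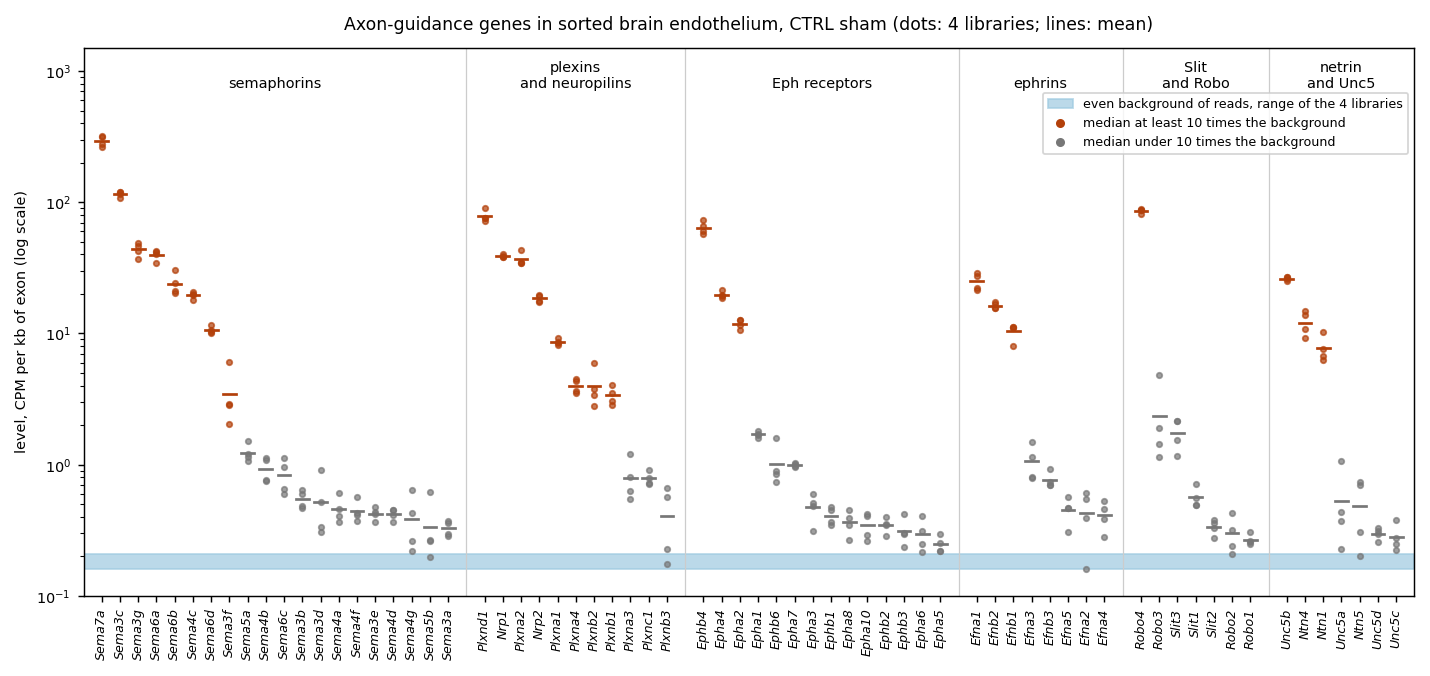
Level of each of the 67 genes in CTRL sham, in CPM per kb of exon on a log axis, by family and in falling order (dots are the 4 libraries, lines their mean). The blue band is the even background of reads, 0.161 to 0.208 CPM per kb in these libraries, and the 26 genes in orange lie between 3.38 and 294 CPM per kb.

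Among ligands, Sema7a was the highest of all 67 genes. This semaphorin, which is held on the membrane by a lipid anchor, reached 294 ± 27.7 CPM per kb (SD, n = 4) in CTRL sham and made up 52.7% of the summed semaphorin level. Its known plexin receptor Plxnc1 was near background, at 0.785 ± 0.0902 CPM per kb. The secreted class 3 ligands followed with Sema3c at 116 ± 5.75 and Sema3g at 43.8 ± 5.25 CPM per kb, while Sema3f, a ligand of Nrp2, was at 3.48 ± 1.8 CPM per kb. The transmembrane ligands Sema6a at 39.7 ± 3.601, Sema6b at 23.95 ± 4.596, Sema4c at 19.6 ± 1.07 and Sema6d at 10.6 ± 0.757 CPM per kb completed the semaphorins above background. Sema3a and Sema3e, both known for guiding vessels from outside the endothelium, were at 0.329 ± 0.04399 and 0.422 ± 0.04495 CPM per kb, near the background of these libraries. Sema5a, a transmembrane ligand, was at 1.23 ± 0.198 CPM per kb, and its median over all 16 libraries was 5.85 times the background.

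Among semaphorin receptors, Plxnd1, the endothelial plexin that binds Sema3e, led with 78.3 ± 8.03 CPM per kb (SD, n = 4). Nrp1, a co-receptor for class 3 semaphorins and VEGF-A, was at 38.9 ± 0.861 CPM per kb and Plxna2, a receptor for class 6 semaphorins, at 36.99 ± 4.24 CPM per kb. These levels and that of Sema6a did not differ beyond their spread. Nrp2, the co-receptor for Sema3f and VEGF-C, was at 18.5 ± 1.07 and Plxna1 at 8.604 ± 0.436 CPM per kb. Plxna4 at 4.0 ± 0.4901, Plxnb2, the receptor for Sema4c, at 3.99 ± 1.35 and Plxnb1, the receptor for Sema4d, at 3.38 ± 0.5403 CPM per kb did not differ beyond their spread.

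In the other families 1 or a few members carried most of the level. Robo4, the endothelial Robo receptor, was at 86.3 ± 3.72 CPM per kb (SD, n = 4) and made up 94.0% of the Slit and Robo level. Robo1 at 0.269 ± 0.0252 and Slit2 at 0.335 ± 0.0459 CPM per kb were near background. Slit3 was at 1.76 ± 0.484 and Robo3 at 2.33 ± 1.71 CPM per kb, and in Robo3 the CTRL sham replicate 4 held 33.3 CPM against 7.79 to 13.0 CPM in the other 3 replicates. Ephb4 reached 64.01 ± 7.09 CPM per kb, or 62.7% of the Eph receptor level, ahead of Epha4 at 19.8 ± 1.25 and Epha2 at 11.9 ± 0.898 CPM per kb. The ephrins above background were Efna1, a ligand of Epha2, at 25.05 ± 3.62, Efnb2, the ligand of Ephb4, at 16.3 ± 0.941 and Efnb1 at 10.4 ± 1.54 CPM per kb. The netrin receptor Unc5b was at 26.2 ± 0.721, the basement membrane netrin Ntn4 at 12.1 ± 2.58 and Ntn1 at 7.73 ± 1.76 CPM per kb. Where gene models overlap, the counts may hold reads of both: the exons of Plxna1 share 10.7% of their length, those of Sema4c 7.27% and those of Plxnb1 2.68% with a gene on the opposite strand.

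The first question was whether the loss of YAP and TAZ altered these genes in bECs of sham-operated mice. The YT-iKO libraries held lower values of Robo4, Plxna4, Epha2, Plxna1 and Plxna2, and the groups did not overlap for these 5 genes, while 2.22% of all genes tested were lower in this way. With all-gene factors, edgeR's quasi-likelihood test called 0 of the 68 genes at an adjusted p under 0.1, against 0.0965% of all genes tested. At an unadjusted p under 0.05, 6 of the 68 were lower and 0 higher, against 1.1% and 1.05% of all genes. DESeq2 called 2, Plxna4 and Robo4. It called 0.547% of the 14811 genes for which it gave an adjusted p, out of 31083 genes fitted. Under abundant-gene factors, edgeR called 2, Robo4 and Plxna1, against 0.37% of all genes. At an unadjusted p under 0.05 on that scale, 5 were lower and 4 higher, against 682 and 853 of the 31085 genes tested. The median log2 difference of all genes tested was 0.11 with the first factors and 0.30 with the second, and that of the 26 genes above background was -0.16 and -0.02. All 10 endothelial markers also had lower values in YT-iKO sham, with a median log2 difference of -0.32 with the first factors, and 9 of 10 did with the second, with a median of -0.19. Their summed level was 16371 to 17862 CPM in CTRL sham and 9326 to 16913 CPM in YT-iKO sham. The 7 oligodendrocyte markers summed to 9.002 to 15.1 and 12.6 to 28.9 CPM, and the 8 neuronal markers to 23.3 to 36.3 and 25.02 to 52.7 CPM. The summed level of the 6 astrocyte markers was lower in YT-iKO sham without overlap, at 97.6 to 112 and 61.7 to 81.2 CPM. Gja1 made up most of it, with means of 62.7 and 38.2 CPM, and Gfap, at 5.13 and 6.12 CPM, and Aqp4, at 2.07 and 2.18 CPM, had higher means in YT-iKO. In the same groups the 7 pericyte markers summed to 735 to 925 and 535 to 848 CPM. The part of these cells in the values of the genes below was not tested.

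Robo4, at chr9:37401897-37415115, held 429, 463, 475 and 463 CPM in the 4 CTRL sham libraries and 309, 279, 191 and 234 CPM in the 4 YT-iKO sham libraries. Every YT-iKO library was below every CTRL library, and within YT-iKO the lowest value was in replicate 3, the library with the highest background of its group, at 0.571 CPM per kb. The edgeR difference was log2 fold change -0.85, SE 0.26, adjusted p = 0.9904. On the scale of abundant genes the same libraries held 401, 433, 434 and 442 CPM in CTRL and 279, 258, 257 and 246 CPM in YT-iKO, a narrower spread in both. On that scale the edgeR difference was log2 fold change -0.72, SE 0.08, adjusted p = 8.13e-05, and over all alternatives the adjusted p ran from 4.05e-22 to 1.00. The exact permutation test gave p = 0.0286 on both scales, the smallest that 4 and 4 libraries allow.

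The A-type plexins Plxna4, Plxna1 and Plxna2 were further genes whose sham groups did not overlap. Plxna4 held 49.8, 51.2, 63.5 and 61.1 CPM in CTRL sham and 30.5, 26.3, 31.8 and 29.8 CPM in YT-iKO sham, with no overlap. Its edgeR difference was log2 fold change -0.93, SE 0.23, adjusted p = 0.389, the largest in size among the genes above background, and the adjusted p was 0.006698 with DESeq2 and 0.102 with edgeR and abundant-gene factors. Without CTRL MCAo replicate 1 or YT-iKO MCAo replicate 4, neither of which is in this contrast, edgeR called it, and the adjusted p ran from 0.00214 to 0.999 over all alternatives. Plxna1 held 78.1, 73.9, 76.4 and 83.2 CPM in CTRL sham and 61.9, 64.7, 37.8 and 51.7 CPM in YT-iKO sham (log2 fold change -0.53, SE 0.24, adjusted p = 0.9904, edgeR). When scaled by abundant genes its means were 72.8 ± 4.69 and 55.3 ± 3.84 CPM (SD, n = 4), and edgeR called the decrease (log2 fold change -0.40, SE 0.07, adjusted p = 0.0153, range over alternatives 4.68e-05 to 1.00). Plxna2 held 606, 595, 744 and 596 CPM in CTRL sham, where replicate 3 was high, and 427, 497, 347 and 350.1 CPM in YT-iKO sham (log2 fold change -0.65, SE 0.28, adjusted p = 0.9904, edgeR, range over alternatives 0.00696 to 1.00).

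Epha2, the kinase bound by ephrin-A1, held 54.01, 58.8, 58.8 and 50.1 CPM in CTRL sham and 34.2, 42.7, 33.9 and 34.98 CPM in YT-iKO sham. The groups did not overlap, although YT-iKO replicate 2 was above the other 3 (log2 fold change -0.60, SE 0.19, adjusted p = 0.9904, edgeR, range over alternatives 0.0357 to 1.00). Its ligand Efna1 was at 45.8 ± 6.63 CPM (SD, n = 4) in CTRL sham and 42.3 ± 10.98 CPM in YT-iKO sham, and its log2 difference was -0.11 with all-gene factors and 0.02 with abundant-gene factors. Ntn4 held 34.3, 40.5, 55.3 and 51.3 CPM in CTRL sham and 31.8, 25.3, 32.4 and 37.6 CPM in YT-iKO sham, and these groups overlapped (log2 fold change -0.51, SE 0.20, adjusted p = 0.9904, edgeR). Over all alternatives its log2 difference ran from -0.62 to -0.33.

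The endothelial pairs best known from vessel patterning showed no difference that passed the test in sham mice. Ephb4 was at 297 ± 32.9 CPM (SD, n = 4) in CTRL and 299 ± 55.5 CPM in YT-iKO, with a log2 difference of 0.01 and SE 0.28. Efnb2 was at 112 ± 6.45 and 115 ± 30.8 CPM, with 0.04 and SE 0.24. Nrp1 (-0.08, SE 0.24) and Plxnd1 (-0.01, SE 0.28) had log2 differences of opposite sign with abundant-gene factors, at 0.05 and 0.12. The genes near background had a median log2 difference of 0.31, with 34 of 42 above 0, and the background itself was 0.184 ± 0.0222 CPM per kb (SD, n = 4) in CTRL sham and 0.286 ± 0.195 in YT-iKO sham. The part of the background in these values was not tested.

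The promoters of 58 of the 68 genes were found in the RefSeq table on GRCm38.p6, 74 in all, and the 250 bases before each start were searched for the TEAD motif GGAATG or its reverse complement CATTCC, since YAP and TAZ act through TEAD factors, and for the STAT motif TTCNNNGAA, which reads the same on both strands in its fixed letters. The TEAD letters were in 7 of the 74 promoters, or 9.46%, and in 12.6% of all 32851 promoters of the table. The STAT letters were in 2, or 2.703%, and in 7.02% of all. The windows of Epha2 and Robo4 are shown because both genes held lower values in YT-iKO, and that of Plxnb2 because it rose after MCAo. The TEAD letters are in capitals, and the window of Robo4 ends where the gene's annotated transcripts begin.
Epha2 (chr4:141300971-141301220, plus strand): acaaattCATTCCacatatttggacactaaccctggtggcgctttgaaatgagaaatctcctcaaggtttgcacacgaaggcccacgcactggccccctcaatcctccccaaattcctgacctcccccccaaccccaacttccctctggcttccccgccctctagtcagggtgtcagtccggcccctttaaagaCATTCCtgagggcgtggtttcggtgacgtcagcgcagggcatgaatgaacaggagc
Robo4 (chr9:37401722-37401896, plus strand): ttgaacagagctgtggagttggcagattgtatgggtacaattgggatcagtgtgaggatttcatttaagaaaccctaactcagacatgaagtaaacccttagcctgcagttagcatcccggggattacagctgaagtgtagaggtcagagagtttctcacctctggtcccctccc
Plxnb2 (chr15:89180789-89181038, minus strand): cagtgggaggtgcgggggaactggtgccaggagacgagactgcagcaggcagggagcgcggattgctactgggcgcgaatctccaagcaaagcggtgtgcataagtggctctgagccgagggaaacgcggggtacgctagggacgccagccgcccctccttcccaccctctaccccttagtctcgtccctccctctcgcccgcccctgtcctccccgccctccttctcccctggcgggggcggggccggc
Epha2 has the TEAD letters at 2 places, at 243 and 56 bases before the start, and no other of the 74 promoters has them more than once. The share of all promoters of the table with these letters more than once is not given here. The others of the 74 with these letters are the windows of Efnb2, Epha1, Epha3, Plxnb1, Plxnd1 and 1 of those of Sema4a. None of these genes was called between genotypes after sham with either set of factors, with log2 differences of 0.04, 0.26, -0.29, 0.16, -0.01 and 0.38 in that order with all-gene factors. Plxna2, lower in YT-iKO sham without overlap, lacks the letters. The windows of Robo4 and Plxnb2 hold neither motif, which says only that these letters are not in these bases.

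The same question was asked after MCAo. With all-gene factors, edgeR called 0 of the 68 genes between YT-iKO and CTRL, against 0.0708% of all genes tested, and 4 had an unadjusted p under 0.05, against 1.49%. Epha7, whose values are given with the genes near background, was the only one of the 68 whose groups did not overlap with all-gene factors, against 0.981% of all genes. Of the 4, Robo4 and Epha2 were lower and Sema3g and Sema5a higher in YT-iKO. DESeq2 called 0, against 0.534% of the 17222 genes for which it gave an adjusted p. With abundant-gene factors edgeR called 5, Robo4, Epha2 and Plxna1 lower and Sema3g and Sema4c higher, against 0.582% of all genes. At an unadjusted p under 0.05 with these factors, 4 were lower and 10 higher, against 786 and 693 of the 31085 genes tested. The 10 included Efnb2, at 86.3 ± 4.42 CPM (SD, n = 4) in CTRL and 111 ± 11.7 CPM in YT-iKO, without overlap. Ephb4, at 333 ± 23.1 and 414 ± 75.9 CPM, Plxnd1 and Nrp2 were also among them, with groups that overlapped. Efnb2, Ephb4, Plxnd1 and Nrp2 were not called. The median log2 difference of all genes tested was 0.03 with the first factors and 0.08 with the second. The 10 endothelial markers had a median of -0.18 and -0.19, with 9 of 10 lower on both scales.

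Robo4 held 539.9, 364, 316 and 523 CPM in the CTRL MCAo libraries and 295, 180.3, 222 and 388 CPM in the YT-iKO MCAo libraries. The groups overlapped on this scale, and in each group the replicates with the lowest values were 2 and 3, which had the highest background (log2 fold change -0.68, SE 0.26, adjusted p = 1.00, edgeR). On the scale of abundant genes the values were 419, 424, 398 and 475 CPM in CTRL and 259, 243, 273 and 285 CPM in YT-iKO. These did not overlap, and the decrease was called (log2 fold change -0.69, SE 0.08, adjusted p = 1.16e-04, edgeR, range over alternatives 9.01e-21 to 1.00). On this scale Robo4 in YT-iKO was at 260.1 ± 13.6 CPM (SD, n = 4) after sham and 265 ± 18.1 CPM after MCAo, and in CTRL at 427 ± 18.1 and 429 ± 32.7 CPM.

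Epha2 held 52.3, 44.5, 41.4 and 50.2 CPM in CTRL MCAo and 42.7, 24.8, 26.1 and 38.1 CPM in YT-iKO MCAo, and only YT-iKO replicate 1 reached into the CTRL range (log2 fold change -0.52, SE 0.19, adjusted p = 1.00, edgeR). When scaled by abundant genes the groups did not overlap (log2 fold change -0.53, SE 0.12, adjusted p = 0.0587, range over alternatives 0.00296 to 1.00). Plxna1 was at 73.2 ± 4.598 CPM (SD, n = 4) in CTRL MCAo and 55.6 ± 1.96 CPM in YT-iKO MCAo on that scale (log2 fold change -0.40, SE 0.07, adjusted p = 0.0125, edgeR, range over alternatives 3.38e-05 to 1.00), and with all-gene factors the adjusted p was 1.00. Plxna4, lower in sham YT-iKO mice, held 75.9, 53.7, 42.8 and 44.4 CPM in CTRL MCAo and 52.4, 39.7, 27.8 and 58.9 CPM in YT-iKO MCAo, which overlap (log2 fold change -0.28, SE 0.23, adjusted p = 1.00, edgeR).

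Sema3g, a secreted ligand made by arterial endothelium, held 214, 108, 93.9 and 186 CPM in CTRL MCAo and 440.3, 175, 186 and 376 CPM in YT-iKO MCAo. The groups overlapped, with YT-iKO replicates 1 and 4 highest (log2 fold change 0.97, SE 0.31, adjusted p = 1.00, edgeR). Under abundant-gene factors they became 166, 126, 118 and 168 and 387, 235, 229 and 276 CPM, with no overlap, and the increase was called (log2 fold change 0.96, SE 0.18, adjusted p = 0.01896, range over alternatives 1.54e-05 to 1.00). Without YT-iKO MCAo replicate 1 the log2 difference with all-gene factors was 0.61. Sema4c, the ligand of Plxnb2, was at 80.7 ± 3.09 and 103 ± 9.998 CPM (SD, n = 4) on the scale of abundant genes (log2 fold change 0.35, SE 0.07, adjusted p = 0.0401, edgeR, range over alternatives 3.34e-04 to 1.00). With all-gene factors its log2 difference of 0.39 was 0.14 with limma-voom, 0.19 without YT-iKO MCAo replicate 1 and 0.17 without replicate 4. After sham, Sema4c was at 84.2 ± 4.3 CPM in CTRL and 105 ± 5.9 CPM in YT-iKO with abundant-gene factors, without overlap. That difference had an unadjusted p under 0.05 with edgeR and was not called. Sema5a held 35.4, 21.01, 18.5 and 20.9 CPM in CTRL MCAo and 90.03, 19.2, 34.6 and 38.01 CPM in YT-iKO MCAo. Its log2 difference of 0.93 (SE 0.34) rested on YT-iKO replicate 1 and was 0.28 without it, and the adjusted p ran from 0.0571 to 1.00 over all alternatives.

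**Figure D2:**
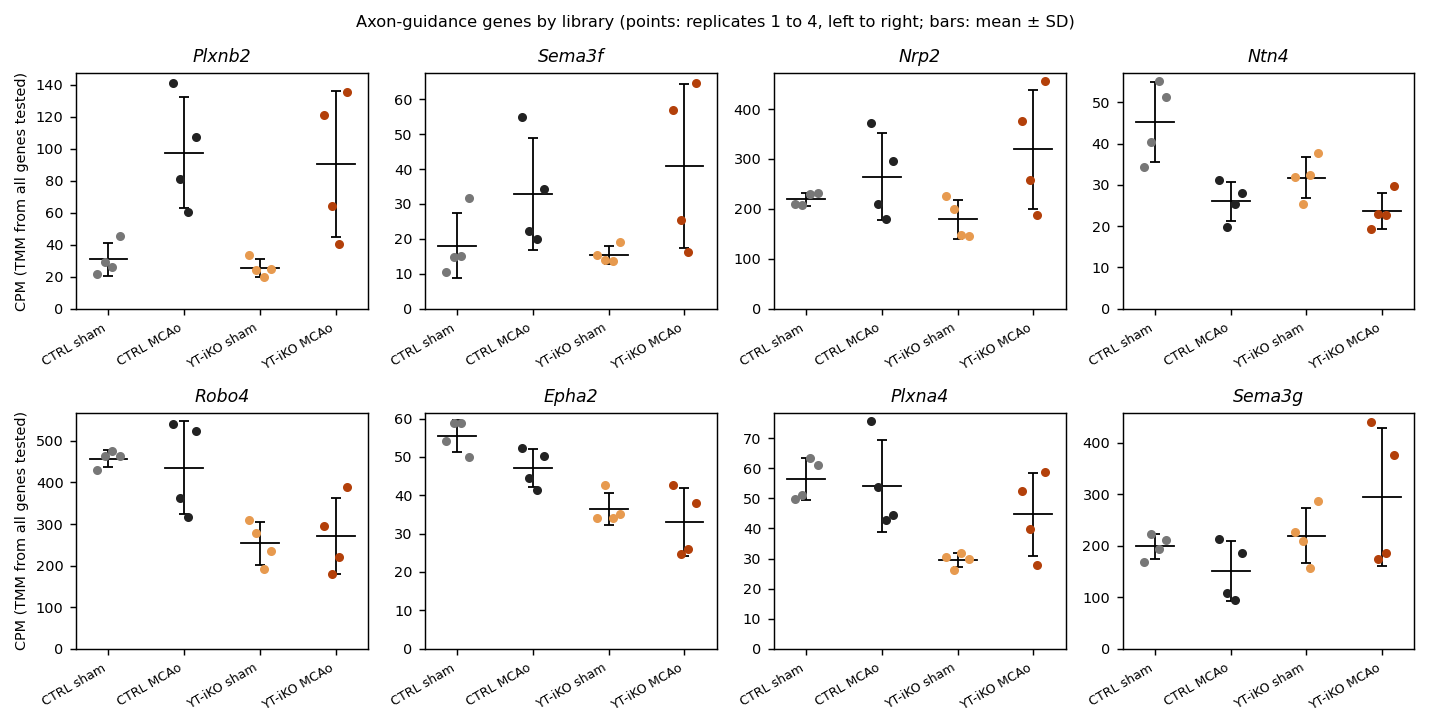
CPM of 8 genes in each library with all-gene factors, by group (points are replicates 1 to 4 from left to right, lines and bars the mean ± SD). Plxnb2 is higher in each MCAo library than in each sham library of its genotype, and Robo4, Epha2 and Plxna4 are lower in YT-iKO than in CTRL after sham without overlap.

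**Figure D3:**
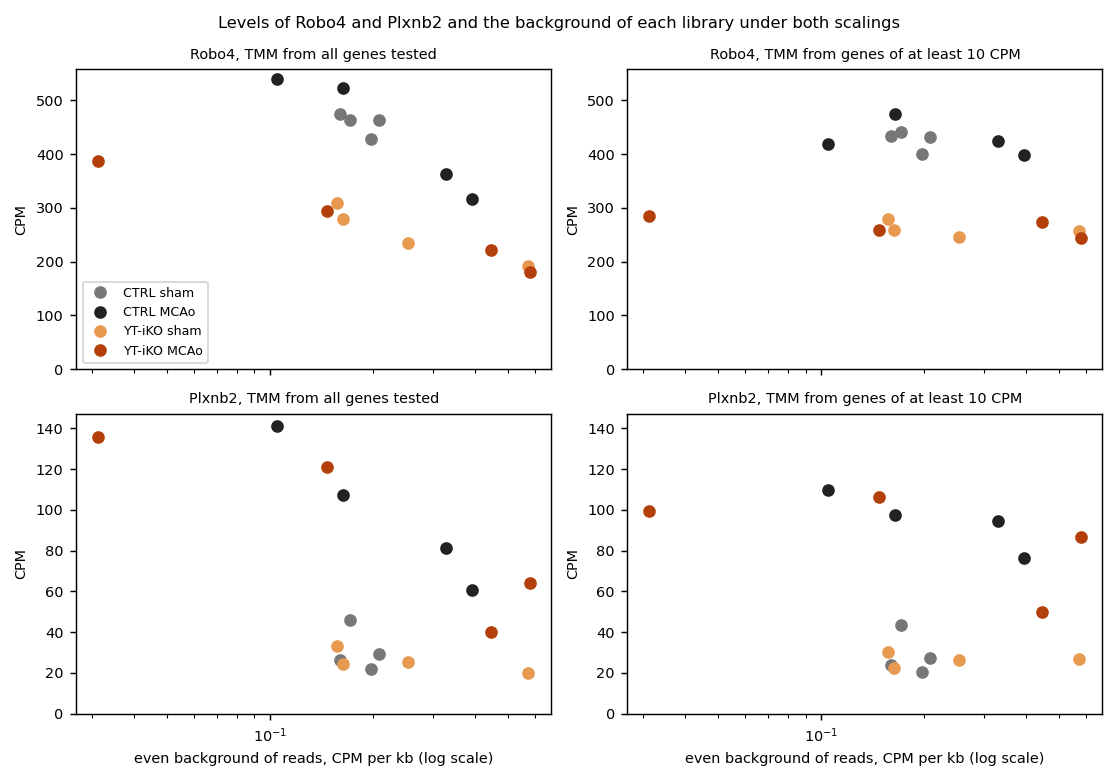
CPM of Robo4 and Plxnb2 in each library against the library's even background of reads on a log axis, with all-gene factors on the left and abundant-gene factors on the right. On the left Robo4 runs from 180.3 to 539.9 CPM and the highest values are in libraries of low background, and on the right the YT-iKO libraries lie between 243 and 285 CPM and the CTRL libraries between 398 and 475 CPM.

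The other question was how these genes changed 72 hours after MCAo in each genotype. The comparison in CTRL shares its sham libraries with the genotype comparison in sham mice, and that in YT-iKO likewise, so they are not independent of each other. With all-gene factors edgeR called 1 of the 68 genes in CTRL, Plxnb2, which rose, against 0.216% of all genes tested. At an unadjusted p under 0.05, Plxnb2 and Sema3f were higher and Ntn4 and Unc5b lower, against 3.5% of all genes. Plxnb2 was above, and Efnb2, Nrp1, Ntn4 and Unc5b were below the sham range without overlap, 5 of the 68 against 4.14% of all genes. DESeq2 called 2, Plxnb2 and Ntn4, against 1.29% of the 17222 genes for which it gave an adjusted p. With abundant-gene factors edgeR called 4, Plxnb2, Efna1 and Plxnb1 higher and Unc5b lower, against 1.78%. At an unadjusted p under 0.05 with these factors, 10 were higher and 7 lower, against 1492 and 848 of the 31085 genes tested. The median log2 difference of all genes tested was 0.07 with the first factors and 0.21 with the second. In YT-iKO edgeR also called 1 of the 68, Plxnb2, against 0.318% of all genes, and 7 were higher and 0 lower at an unadjusted p under 0.05, against 2.24% and 0.772%. Plxnb2 was the only one whose groups did not overlap, against 1.28%. DESeq2 called 3, Nrp2, Plxnb2 and Sema3f, against 1.73% of the 15414 genes for which it gave an adjusted p. When scaled by abundant genes edgeR called 7 in YT-iKO, Plxnb2, Nrp2, Plxnb1, Sema6b, Sema3f and Sema6a higher and Nrp1 lower, against 1.72%, and the median of all genes was -0.02 with both. At an unadjusted p under 0.05 on that scale, 11 were higher and 4 lower, against 1206 and 871 of the 31085 genes tested.

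Plxnb2, at chr15:89155549-89180788, encodes plexin B2, a receptor for class 4 semaphorins. In CTRL it held 21.8, 29.4, 26.3 and 45.7 CPM after sham and 141, 81.3, 60.4 and 107 CPM after MCAo. Every MCAo library was above every sham library, and the increase was called (log2 fold change 1.66, SE 0.34, adjusted p = 0.0431, edgeR, range over alternatives 5.55e-11 to 0.261). In YT-iKO it held 33.3, 24.3, 20.02 and 25.1 CPM after sham and 121, 64.3, 40.3 and 136 CPM after MCAo, again without overlap, and replicate 3 was the lowest of the MCAo libraries (log2 fold change 1.81, SE 0.34, adjusted p = 0.0191, edgeR, range over alternatives 1.07e-10 to 0.126). Under abundant-gene factors the adjusted p was 6.86e-04 in CTRL and 7.36e-04 in YT-iKO. The call in CTRL was lost when CTRL sham replicate 1, 2 or 3 or CTRL MCAo replicate 1 or 4 was left out, with log2 differences of 1.53, 1.64, 1.59, 1.48 and 1.61, and that in YT-iKO without YT-iKO sham replicate 2 or 4, at 1.72 and 1.81. It was also lost in YT-iKO in a model of only the YT-iKO libraries, at a log2 difference of 1.70 and an adjusted p of 0.126. With limma-voom and library weights the difference in YT-iKO was smaller, at 0.85, and was called (adjusted p = 0.0563). The log2 difference between the genotypes in this response was 0.15 with SE 0.46 (adjusted p = 1.00, edgeR) and -0.02 with abundant-gene factors.

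Markers of fibroblasts and pericytes had higher values after MCAo. All 5 fibroblast markers and 6 of 7 pericyte markers did in CTRL, with median log2 differences of 0.79 and 0.55, and 4 of 5 and 7 of 7 did in YT-iKO, with 0.74 and 0.60. The summed level of the 5 fibroblast markers was 16.9 to 19.1 CPM in CTRL sham and 26.1 to 31.5 CPM in CTRL MCAo, and 16.97 to 34.8 and 26.05 to 34.02 CPM in YT-iKO. Among them Dcn, which encodes decorin, had a mean of 1.16 CPM in CTRL sham and 5.28 CPM in CTRL MCAo, and Lum one of 0.250 and 0.788 CPM. The 7 pericyte markers summed to 735 to 925 CPM in CTRL sham and 546 to 1480 CPM in CTRL MCAo, and to 535 to 848 and 486 to 1146 CPM in YT-iKO. The 5 smooth muscle markers had higher values in CTRL, 5 of 5 with a median log2 difference of 0.24, and 1 of 5 did in YT-iKO, with a median of -0.03. The 7 markers of microglia and macrophages summed to 7.47 to 18.1 CPM in CTRL sham and 5.87 to 15.6 CPM in CTRL MCAo, and to 6.75 to 25.5 and 4.67 to 23.8 CPM in YT-iKO. The 5 markers of monocytes and neutrophils summed to 3.44 to 4.85 CPM in CTRL sham and 2.76 to 9.83 CPM in CTRL MCAo. Each of them had a higher mean in CTRL MCAo than in CTRL sham. In YT-iKO they summed to 3.65 to 9.46 and 1.06 to 10.2 CPM. The astrocyte marker Gfap held 4.04 to 6.11 CPM in CTRL sham and 8.77 to 13.3 CPM in CTRL MCAo, without overlap. In YT-iKO Gfap held 4.63 to 8.23 and 5.18 to 11.2 CPM. The 6 astrocyte markers together summed to 97.6 to 112 and 90.8 to 113 CPM in CTRL. In YT-iKO they summed to 61.7 to 81.2 and 70.3 to 113 CPM. The 10 endothelial markers summed to 16371 to 17862 and 11525 to 19636 CPM in CTRL. In YT-iKO these summed to 9326 to 16913 and 9252 to 17752 CPM. Every fibroblast and pericyte marker had counts in each group. The part of these cell types in the rise of Plxnb2 was not tested.

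The other B-type plexin above background had smaller differences. Plxnb1 held 29.2, 27.6, 34.04 and 39.05 CPM in CTRL sham and 55.7, 45.3, 33.8 and 45.8 CPM in CTRL MCAo, which overlap (log2 fold change 0.48, SE 0.23, adjusted p = 1.00, edgeR). In YT-iKO it held 34.7, 42.1, 35.2 and 33.6 and 71.2, 40.98, 38.98 and 81.3 CPM (log2 fold change 0.68, SE 0.23, adjusted p = 0.732, edgeR). On the scale of abundant genes the groups did not overlap in either genotype and edgeR called the increase in both, at an adjusted p of 0.0492 in CTRL (range over alternatives 0.00456 to 1.00) and 0.0502 in YT-iKO (0.00412 to 1.00). With limma-voom the log2 difference in YT-iKO was 0.17. Plxnd1, the most abundant plexin, had log2 differences of -0.26 (SE 0.28) in CTRL and 0.02 (SE 0.28) in YT-iKO, and the latter was -0.07 with abundant-gene factors.

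Sema3f and its co-receptor Nrp2 were called higher after MCAo in YT-iKO by DESeq2 and by edgeR with abundant-gene factors. Sema3f held 15.3, 13.8, 13.6 and 19.2 CPM in YT-iKO sham and 57.03, 25.5, 16.4 and 64.6 CPM in YT-iKO MCAo, where replicate 3 lay within the sham range (log2 fold change 1.40, SE 0.39, adjusted p = 0.292, edgeR). DESeq2 called it (adjusted p = 0.0253), edgeR called it with abundant-gene factors (adjusted p = 0.0778) and without YT-iKO MCAo replicate 3 (log2 difference 1.67, adjusted p = 0.0469), and the range over alternatives was 0.00427 to 1.00. Its log2 difference was 0.30 with limma-voom and 1.24 with the replicate number as a block, where edgeR called it. Xist levels differed between the numbers, and their part in the block's value was not tested. With the log2 Xist level as a covariate in place of the block, the log2 difference was 1.40 (adjusted p = 0.397). In CTRL, Sema3f held 10.6, 14.8, 15.2 and 31.8 CPM after sham and 54.96, 22.4, 19.9 and 34.2 CPM after MCAo (log2 fold change 0.86, SE 0.39, adjusted p = 1.00, edgeR, range over alternatives 0.0848 to 1.00). Sham replicate 4 lay above MCAo replicates 2 and 3, and the log2 difference was 1.28 without it and 0.55 without MCAo replicate 1.

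Nrp2 held 225, 199.6, 147 and 145 CPM in YT-iKO sham and 376, 259, 188 and 456 CPM in YT-iKO MCAo. In CTRL it held 209, 207, 230.0 and 231 CPM after sham and 373, 209.9, 179 and 297 CPM after MCAo. With these all-gene factors the groups overlapped in both genotypes. The differences were log2 fold change 0.84, SE 0.28, adjusted p = 0.6199 in YT-iKO and log2 fold change 0.27, SE 0.27, adjusted p = 1.00 in CTRL with edgeR. With abundant-gene factors Nrp2 was at 184 ± 22.4 CPM (SD, n = 4) after sham and 312 ± 53.4 CPM after MCAo in YT-iKO, and the increase was called (log2 fold change 0.76, SE 0.12, adjusted p = 0.0030, range over alternatives 1.86e-07 to 1.00). Its log2 difference in YT-iKO was 0.23 with limma-voom. In CTRL, Nrp2 was at 205 ± 12.5 CPM after sham and 257 ± 27.8 CPM after MCAo with abundant-gene factors, without overlap. That rise had an unadjusted p under 0.05 with edgeR and was not called. Nrp1 was at 368 ± 40.8 and 288 ± 27.1 CPM on that scale, a decrease that was called in YT-iKO (log2 fold change -0.35, SE 0.09, adjusted p = 0.0727, edgeR, range over alternatives 0.00132 to 1.00), while with all-gene factors the log2 difference was -0.30 (adjusted p = 1.00), and -0.60 with limma-voom. Leaving out replicate 3 of the YT-iKO sham group made it -0.47, and leaving out MCAo replicate 2 or 4 of this genotype made it -0.20 or -0.51. In CTRL, Nrp1 was at 356 ± 13.8 and 304 ± 18.5 CPM, with an adjusted p of 0.406.

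The class 6 semaphorins above background were not called with all-gene factors, and Sema6a and Sema6b were called in YT-iKO with abundant-gene factors. Sema6b held 100.3, 88.7, 81.4 and 60.1 CPM in YT-iKO sham and 202, 83.5, 90.1 and 247 CPM in YT-iKO MCAo (log2 fold change 0.91, SE 0.31, adjusted p = 0.699, edgeR), and its adjusted p was 0.0578 with abundant-gene factors and ran from 0.00234 to 1.00 over all alternatives. Its log2 difference with all-gene factors was 0.60 without YT-iKO MCAo replicate 4 and 0.22 with limma-voom. Sema6a was at 297 ± 62.4 and 416 ± 42.6 CPM (SD, n = 4) in YT-iKO and 326 ± 33.7 and 438 ± 35.05 CPM in CTRL on that scale, with adjusted p of 0.0886 (range over alternatives 0.00514 to 1.00) and 0.1599. With all-gene factors the log2 difference in YT-iKO was 0.53, and 0.06 with limma-voom. It was 0.31 when replicate 3 of the sham group was left out and 0.26 when replicate 4 of the MCAo group was. Sema6d had log2 differences of 0.43 (SE 0.28) in YT-iKO and 0.21 (SE 0.28) in CTRL. The ligands with the highest levels were called on neither scale. The log2 difference of Sema7a was -0.14 (SE 0.31) in CTRL and 0.32 (SE 0.31) in YT-iKO, and that of Sema3c -0.36 (SE 0.28) and -0.27 (SE 0.28). With abundant-gene factors Sema3c went from 774 ± 32.2 to 637 ± 32.4 CPM (SD, n = 4) in CTRL, without overlap. In YT-iKO it went from 642 ± 69.5 to 515 ± 119 CPM, and the groups overlapped. Both decreases had an unadjusted p under 0.05 with edgeR and were not called.

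In the netrin family the values after MCAo were lower for Ntn4 and Unc5b and higher for Ntn1. Ntn4, a netrin of the vascular basement membrane, held 34.3, 40.5, 55.3 and 51.3 CPM in CTRL sham and 31.1, 19.9, 25.3 and 27.9 CPM in CTRL MCAo, with no overlap (log2 fold change -0.80, SE 0.21, adjusted p = 0.213, edgeR). DESeq2 called the decrease (adjusted p = 0.0148), edgeR did so without YT-iKO MCAo replicate 1 or 4 and with the replicate number as a block (log2 difference -0.79, and -0.73 with the log2 Xist level as a covariate in its place, adjusted p = 0.393), and the range over alternatives was 2.79e-04 to 0.8703. In YT-iKO it held 31.8, 25.3, 32.4 and 37.6 CPM after sham and 19.3, 23.1, 22.8 and 29.8 CPM after MCAo, which overlap (log2 fold change -0.42, SE 0.21, adjusted p = 1.00, edgeR). Unc5b, the endothelial netrin receptor, held 167, 163, 158 and 167 CPM in CTRL sham and 134, 89.8, 82.7 and 120.1 CPM in CTRL MCAo, with no overlap (log2 fold change -0.62, SE 0.24, adjusted p = 1.00, edgeR). Under abundant-gene factors it fell from 153 ± 6.55 to 106 ± 2.36 CPM (SD, n = 4), and the decrease was called (log2 fold change -0.54, SE 0.11, adjusted p = 0.02297, range over alternatives 2.65e-04 to 1.00). In YT-iKO it went from 152 ± 28.6 to 118.5 ± 14.3 CPM on that scale, and the groups overlapped. That decrease had an unadjusted p under 0.05 with edgeR and was not called. With all-gene factors the log2 difference of Unc5b in YT-iKO was -0.34 with SE 0.24. Ntn1 was at 48.5 ± 11.1 and 63.1 ± 22.4 CPM in CTRL and 42.2 ± 5.82 and 68.4 ± 29.5 CPM in YT-iKO, with log2 differences of 0.38 (SE 0.28) and 0.70 (SE 0.28). The difference in YT-iKO was 0.42 without YT-iKO MCAo replicate 1 and 0.13 with limma-voom, and its adjusted p ran from 0.0231 to 1.00 over all alternatives.

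Of the ephrins and Eph receptors, Efna1 held 39.5, 40.9, 50.3 and 52.7 CPM in CTRL sham and 79.4, 47.3, 48.97 and 77.6 CPM in CTRL MCAo. The groups overlapped on this scale (log2 fold change 0.47, SE 0.25, adjusted p = 1.00, edgeR), and with abundant-gene factors the means were 42.9 ± 6.38 and 62.2 ± 6.32 CPM (SD, n = 4) with no overlap and the increase was called (log2 fold change 0.54, SE 0.12, adjusted p = 0.0303, range over alternatives 0.001495 to 1.00). With limma-voom the log2 difference was 0.19. In YT-iKO they were 43.2 ± 5.59 and 56.3 ± 6.03 CPM, with an adjusted p of 0.195. Ephb4 had log2 differences of 0.20 (SE 0.28) in CTRL and 0.54 (SE 0.29) in YT-iKO, and Efnb2 of -0.37 (SE 0.24) and -0.02 (SE 0.24). Epha4 was at 0.01 (SE 0.22) and -0.05 (SE 0.22), and Efnb1 at -0.41 (SE 0.25) and -0.16 (SE 0.25). None of these 4 was called in either genotype with either set of factors. Robo4, lower in YT-iKO, had log2 differences of -0.07 (SE 0.25) in CTRL and 0.10 (SE 0.26) in YT-iKO after MCAo.

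**Figure D4:**
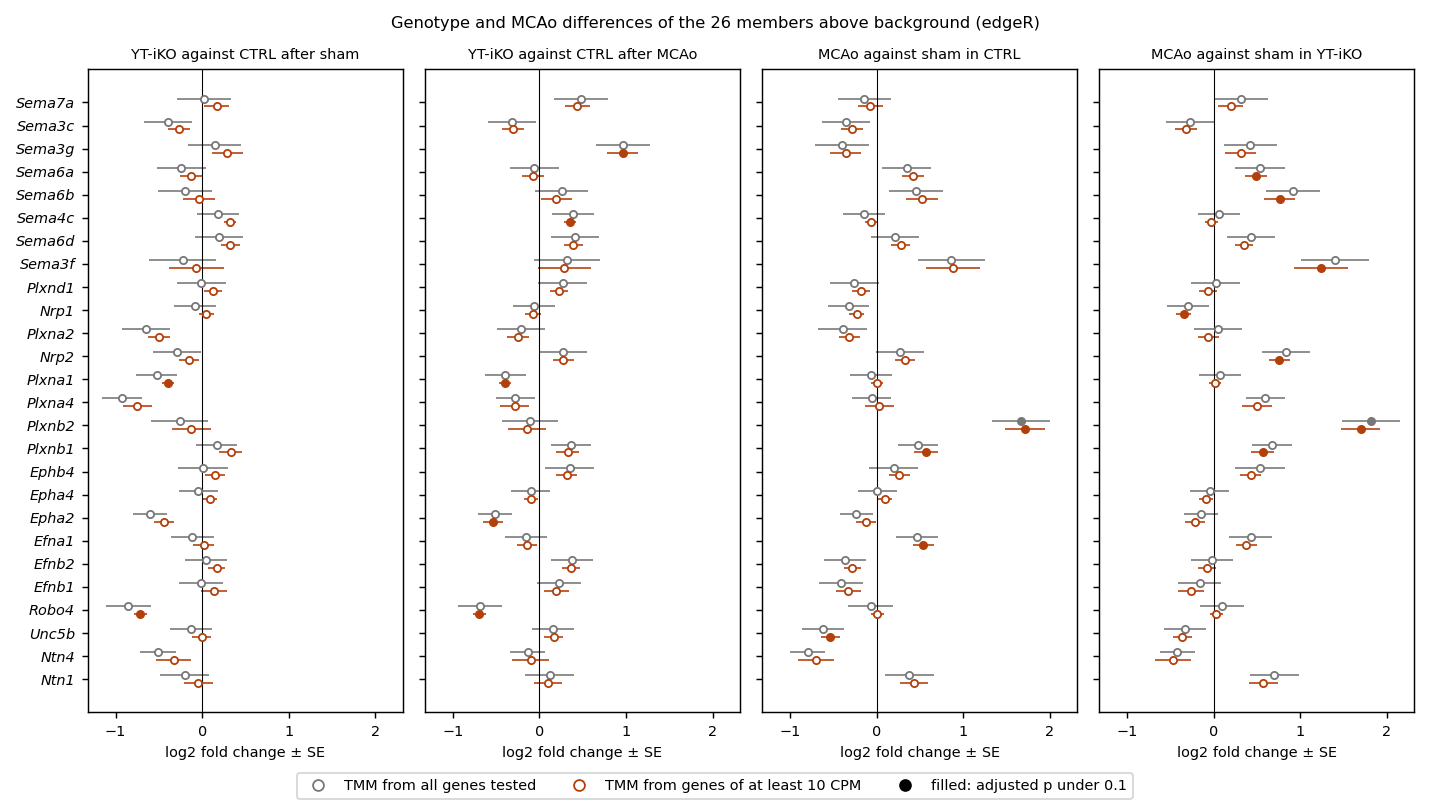
Log2 fold change ± SE (edgeR) of the 26 genes above background in 4 comparisons, with all-gene factors in gray and abundant-gene factors in orange, filled where the adjusted p is under 0.1. Plxnb2 is filled in both scalings after MCAo in CTRL and in YT-iKO, and the orange bars are shorter than the gray for most genes, as for Robo4, whose SE after sham was 0.26 and 0.08.

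Whether the response to MCAo differed between the genotypes was tested by an interaction term. No gene of the 68 was called, and none of the 31085 genes tested was, which is 0.0% of them, with edgeR under either set of factors. DESeq2 called 0 of the 31083 genes for which it gave an adjusted p. At an unadjusted p under 0.05 edgeR found 0 of the 68 and 0.373% of all genes. Of the 26 genes above background 24 had a positive difference, with a median of 0.26, and with abundant-gene factors 19 did, with a median of 0.09. The median of all genes was -0.02 and -0.16. The 26 differences come from the same libraries and scaling factors, so their signs are not independent. How many of all genes had a positive difference was not counted. The largest in size among the 26 genes above background was that of Sema3g, at 0.82 with SE 0.44 (adjusted p = 1.00, edgeR), and that of Plxna4 was 0.65 with SE 0.32. On the scale of abundant genes 2 of the 68, Nrp2 and Sema3g, had an unadjusted p under 0.05, against 0.631% of all genes.

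The 41 genes near background, with Plxna4os1, were 12 semaphorins, 3 plexins, 11 Eph receptors, 5 ephrins, 6 Slit and Robo genes and 4 netrin and Unc5 genes. Their levels in CTRL sham ran from 0.247 CPM per kb in Epha5 to 2.33 in Robo3. Their medians over all 16 libraries ran from 1.20 to 8.01 times the background, so that a part of their counts that was not measured gene by gene is background. In these libraries neither Slit1, Slit2 and Slit3, the ligands of Robo receptors, nor Robo1 and Robo2, nor Unc5a, Unc5c and Unc5d, nor Ephb1, Ephb2, Ephb3 and Ephb6 reached the limit. With edgeR and all-gene factors, 0 of these 42 genes were called in any comparison and 1, Sema5a, had an unadjusted p under 0.05, in the genotype comparison after MCAo, where 1.49% of all genes did. Of all genes 0.0708% to 0.318% were called in the genotype and MCAo comparisons. DESeq2 called 0 of the 42, where a gene without an adjusted p counts as not called. In these 4 comparisons it called 0.534% to 1.73% of the genes for which it gave an adjusted p. With abundant-gene factors edgeR called 0 of the 42, against 0.37% to 1.78% of all genes. Epha7, which was picked here after its values were seen, held 10.98, 8.82, 10.6 and 9.82 CPM in CTRL MCAo and 12.5, 12.4, 11.5 and 12.3 CPM in YT-iKO MCAo without overlap (log2 fold change 0.28, SE 0.17, adjusted p = 1.00, edgeR). With abundant-gene factors it held 8.52, 10.3, 13.3 and 8.92 CPM in CTRL MCAo and 10.98, 16.7, 14.2 and 9.05 CPM in YT-iKO MCAo, and the groups overlapped. The median log2 difference of the 42 genes between genotypes in sham mice was 0.31 with all-gene factors and 0.56 with abundant-gene factors, and those of all genes were 0.11 and 0.30.

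The genes that act with these receptors were read from a list of 77, made up of 22 co-receptors and other receptors and 55 cytoplasmic effectors. In sham mice 0 of the 77 were called between genotypes with edgeR and all-gene factors, against 0.0965% of all genes tested, with a median log2 difference of -0.13 against 0.11 over all genes. Between genotypes after MCAo 0 were called, against 0.0708%, with a median of -0.04 against 0.03. At an unadjusted p under 0.05 they were 3, against 2.16% of all genes, and 2, against 1.49%. MCAo against sham gave 0 calls in CTRL, against 0.216% of all genes, and 1 call in YT-iKO, against 0.318%. The counts at an unadjusted p under 0.05 were 3 in CTRL, against 3.5%, and 6 in YT-iKO, against 3.01%. With abundant-gene factors 4 of the 77 were called in CTRL, against 1.78% of all genes, and 5 in YT-iKO, against 1.72%. Vav2, a signaling protein that acts downstream of Eph receptors, and Itga3, an integrin chain, were higher in both, at log2 fold changes of 0.83 and 0.59 for Vav2 and 0.59 and 0.71 for Itga3. Srgap2, a GTPase-activating protein that binds Robo receptors, was lower in both, at -0.41 and -0.40. The other calls after MCAo with these factors are counted but not named here. Between genotypes the calls with those factors were Itga1, lower after sham, against 0.37% of all genes, and Flrt2, lower, and Mical3, higher, after MCAo, against 0.582%.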

How the data were processed

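RNA from sorted bECs was amplified with the SMART-Seq Ultra Low Input kit and sequenced paired-end. The authors aligned reads with STAR 2.7.8a, named in the submitters' processing notes together with DESeq2, to GRCm38 and GENCODE M12 genes, and deposited the raw gene counts of 16 libraries (columns not used: 0). The counting program, the strand setting and the treatment of multi-mapping reads are not given in the sources used here, so reads of overlapping genes cannot be told apart. Reads carry no molecular identifiers, so counts are not independent molecules.

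Counts were filtered in edgeR 4.0.16 (R 4.3.3; filterByExpr, minimum count 10, minimum total 15), scaled by TMM and fitted with 1 quasi-likelihood model of the 4 groups. The p-values were adjusted by Benjamini-Hochberg over 31085 genes, and an adjusted p under 0.1 was a call. Exact two-sided permutation tests used log2(CPM + 1). Alternatives included DESeq2 1.42.0, limma 3.58.1 (voom with quality weights), other factors and filters, and leaving out each library. The code was tested on simulated data. Exon lengths and coordinates came from GENCODE M21 on GRCm38, and promoters from RefSeq on GRCm38.p6.

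Genes were named when they were called in any comparison, had an unadjusted p under 0.05 and a mean of at least 5 CPM, were among the 3 highest of their family per length in CTRL sham, or were on a list of genes with known endothelial roles. This rule gave 32 genes, and Sema4c, Plxnc1, Epha7 and other genes named outside it were picked after their values were seen. The genes and lists were chosen with earlier results of these data known. A gene of the list of genes that act with these receptors is counted but not reported here.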

Additional observations from a re-analysis of the deposited data

Results flagged for a closer look

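In each group of 4 libraries, the gap between the highest or lowest CPM and its neighbor was divided by the range and compared with Dixon's critical value for 4 samples, for the named genes. Of 128 such groups 6 passed, and chance gives about 1 in 20. In CTRL sham, Efnb1 was low in replicate 1 (0.95), Plxna2 high in replicate 3 (0.923) and Plxnd1 high in replicate 4 (0.833). In YT-iKO sham, Epha2 was high in replicate 2 (0.882) and Robo1 high in replicate 3 (0.852). In CTRL MCAo, Sema5a was high in replicate 1 (0.853).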

How the results depend on the processing

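With all-gene factors and edgeR, 0, 0, 1, 1 and 0 of the 68 genes were called between genotypes after sham and after MCAo, after MCAo in CTRL and in YT-iKO, and for the difference of the responses. The last count stayed 0 under every alternative that could be run for it. Shares of all genes called the same way are in parentheses. For DESeq2 they are shares of the genes for which it gave an adjusted p. These were 11195 to 17222 of 31083 genes in the genotype and MCAo comparisons. After sham, the genotype count was 2 with DESeq2 (0.547%), 2 with abundant-gene factors (0.37%), 1 with a filter of CPM above 1 (0.161%), 3 with only the 2 groups in the model (0.506%), 4 with limma-voom (0.46%) and 0 to 1 with single libraries left out. After MCAo it was 5 with abundant-gene factors (0.582%), 4 with limma-voom (0.827%) and 0 with single libraries left out. In CTRL the count after MCAo was 2 with DESeq2 (1.29%), 4 with abundant-gene factors (1.78%), 2 with the CPM filter (0.474%), 4 with only the 2 groups (2.52%), 23 with limma-voom (24.2%) and 0 to 2 with single libraries left out. In YT-iKO it was 3 with DESeq2 (1.73%), 7 with abundant-gene factors (1.72%), 0 with only the 2 groups (0.0624%), 23 with limma-voom (18.1%) and 0 to 2 with single libraries left out. Further alternatives were chosen after seeing the data. Without both YT-iKO MCAo libraries of highest and lowest background (replicates 2 and 4) the counts were 1, 1 and 2 for genotype after sham, genotype after MCAo and MCAo in CTRL (0.145%, 0.065% and 0.485%). The 1 after MCAo was Sema5a, at a log2 difference of 1.39 and an adjusted p of 0.0650 with edgeR. With DESeq2 and size factors taken from abundant genes the 4 counts were 6, 9, 9 and 13 (2.56%, 4.77%, 7.99% and 8.26%). The causes were not tested, and RLE factors, no filter and an adjusted p under 0.05 left each count within 1.5 times its value. Over the named genes that had an unadjusted p under 0.05 or were called with DESeq2 or abundant-gene factors, and all alternatives, 673 differences kept their direction and side of the threshold, 75 passed it in addition, 8 no longer passed it and 0 reversed. Only those of Plxnb2 after MCAo were called with all-gene factors and edgeR, so no other could lose a call. Plxnb2 kept the call in 23 of 28 alternatives in CTRL and in 25 in YT-iKO. The others among the 673 were uncalled and stayed so.

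With the replicate block the counts were 0, 0, 2, 2 and 0 (0.129%, 0.109%, 0.383%, 0.425% and 0%), with Ntn4 added in CTRL and Sema3f in YT-iKO. The main model has no term for the number, and the labels do not say that same-numbered libraries belong together. Deviations from the group means were more alike between same-numbered libraries. Their median correlation was 0.259 over 24 pairs, 17 of them above 0.1. Differently numbered libraries had a median of -0.128 over 72 pairs, 27 of them above 0.1. Of 16 libraries, 9 were closest to their own number. Xist ran from 511 to 993 CPM in the libraries numbered 3 and from 1.46 to 4.32 CPM in those numbered 2, and its part in the block's values was not tested. With the log2 Xist level as a covariate in edgeR, chosen after seeing the data, the counts were 0, 0, 1, 1 and 0 (0.0869%, 0.0611%, 0.161%, 0.248% and 0%).

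Depth limits the genes near background, where counts were as low as 1, and 4 pools a group limit every comparison: the smallest exact permutation p is 0.0286.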
